A study of Mus musculus with 25 samples.

Results

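The 39 genes described here encode complement and coagulation factors of mouse plasma, and were followed in hepatocytes in which YAP was overexpressed or the kinase genes Lats1 and Lats2 were deleted. They were taken by symbol from a list of 20 complement genes and 19 genes of coagulation and fibrin. Of the 39, 38 had a row in the table of 37117 genes, and 37 were among the 12970 genes that passed a filter on low counts. Klkb1, which encodes plasma prekallikrein, was not analysed here, and Cfb had too few counts to be tested. The samples were liver cells labelled as hepatocytes, obtained by collagenase perfusion and sorted, with 500000 cells in a sample, and sequenced from the 3′ ends of polyadenylated RNA. ApoYap Dox (3 libraries) came from the strain ApoE-rtTA, TRE-hYAP, in which doxycycline turns on a human YAP transgene, after doxycycline at 0.2 mg/ml with 2.5% sucrose for 1 week. ApoYap ctrl (4 libraries) was the same strain with no treatment listed. The cells in which the ApoE sequence drives rtTA were not stated. Lats1/2 KO (3 libraries) came from Lats1flox/flox; Lats2flox/flox mice 1 week after AAV8-TBG-Cre, a virus whose TBG promoter is specific to hepatocytes, and Lats1/2 flox ctrl (4 libraries) from untreated mice of that strain. The wild-type strain C57BL/6 gave BL/6 Dox (4 libraries, the same doxycycline course), BL/6 AAV-Cre (3 libraries, 24 hours after the virus) and BL/6 ctrl (4 libraries, untreated).

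Complement is a set of plasma proteins that mark microbes and damaged cells for removal, and coagulation is a cascade of plasma proteases and cofactors that ends in a fibrin clot. Hepatocytes make most of these proteins and secrete them into blood, while a few members are known mainly from other cells: factor VIII from endothelial cells, properdin from myeloid cells and factor D from fat. YAP is the transcriptional co-activator that the kinases LATS1 and LATS2 hold in check, so both the transgene and the deletion of the kinase genes raise YAP activity.

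Libraries held 8107539 to 16515330 counts. Lats1 had 5.10, 4.79 and 2.97 CPM in Lats1/2 KO libraries, against 13.9, 12.3, 12.98 and 14.9 CPM in Lats1/2 flox ctrl libraries, and was lower (log2 −1.67 ± 0.23 (SE), adjusted p = 4.1e-06). Lats2 had 7.70, 17.8 and 10.5 CPM in Lats1/2 KO libraries, against 13.1, 12.9, 13.7 and 13.02 CPM in Lats1/2 flox ctrl libraries (adjusted p = 0.651), and since the deleted exons are not given, a 3′ tag may lie outside them and check nothing. Ccn2, a target gene of YAP, had 161 to 182 CPM in ApoYap Dox libraries and 62.5 to 149 CPM in Lats1/2 KO libraries, against 0.238 to 4.73 CPM in the other 19 libraries. The 12 hepatocyte markers summed to 48325 to 65426 CPM in ApoYap Dox libraries (unscaled), against 66407 to 81297 CPM in ApoYap ctrl libraries. They summed to 57136 to 62369 CPM in Lats1/2 KO libraries, against 64128 to 75403 CPM in Lats1/2 flox ctrl libraries. Markers of other liver cells moved the other way. The 14 Kupffer cell and macrophage markers summed to 13180 to 23366 CPM in ApoYap Dox libraries and to 909 to 2438 CPM in Lats1/2 KO libraries, against 94.6 to 224 CPM in ApoYap ctrl and 88.9 to 284 CPM in Lats1/2 flox ctrl libraries, and none was at 0. The part of these cells in the lower levels described below was not tested, and in RNA from many cells, fewer cells of a type and less RNA per cell cannot be told apart. Nothing in the labels says that the libraries of a group came from separate mice, so p-values measure the spread between these libraries.

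Most of the measured complement and coagulation genes were lower in both manipulations, further so after Yap induction, where the coagulation genes had the lower median. After Yap induction 30 of the 37 measured genes fell and 2 rose, where 32.0% of all genes tested were called lower and 35.0% higher (adjusted p under 0.05, from the quasi-likelihood test of edgeR, adjusted by Benjamini and Hochberg's method over 12970 genes, as is every adjusted p below; 67.0% were called in either direction). Complement accounted for 14 that fell and 1 that rose out of 19, with a median log2 fold change of −1.40 over 18 genes. Coagulation and fibrinogen accounted for 16 that fell and 1 that rose out of 18, with a median of −2.05. The median of all genes tested was 0.07. In Lats1/2 KO libraries 25 of the 37 fell and 5 rose, where 17.4% of all genes tested were called lower and 20.6% higher. Of these, 10 of 19 complement genes fell and 3 rose (median −0.59 over 18 genes), and 15 of 18 coagulation and fibrinogen genes fell and 2 rose (median −0.63), beside a median of −0.03 for all genes tested. The medians leave out Cfd, which had no count in several groups. Cfd is 1 of the 10 complement genes counted as lower in the knockout, but untreated ApoYap ctrl libraries had no count of it either. Its values cannot show an effect of the knockout. With Cfd at its bound the complement median of the knockout was −0.64 over 19 genes, a value with the same limit. The hepatocyte markers fell by similar amounts in the same test. All 12 were called lower after Yap induction, with a median of −2.20, beside −1.97 for 36 members. In the knockout 11 of the 12 were called lower, with a median of −0.75, beside −0.61 for 36 members.

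These log2 changes rest on scaling by trimmed mean of M values (TMM), which balances the bulk of the genes between libraries. With total counts alone, the median of all genes was 0.99 after Yap induction and 0.44 in the knockout, so changes are best read relative to that median. The complement and coagulation medians stood 1.48 and 2.13 below it after Yap induction (1.47 and 2.12 with TMM), and 0.56 and 0.61 below it in the knockout (0.56 and 0.60 with TMM). Another scaling shifts all genes of a comparison by nearly the same amount. These distances therefore stay nearly the same by construction, and their agreement does not test the choice of scaling. With total counts alone and no reference to that median, 4 complement genes were called higher and 9 lower after Yap induction. Of all 12970 genes tested, 8613 were called higher and 1638 lower there. In the knockout 5 complement and 6 coagulation genes were called lower, where 572 of all 12970 genes were called lower and 5781 higher.

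**Figure D1:**
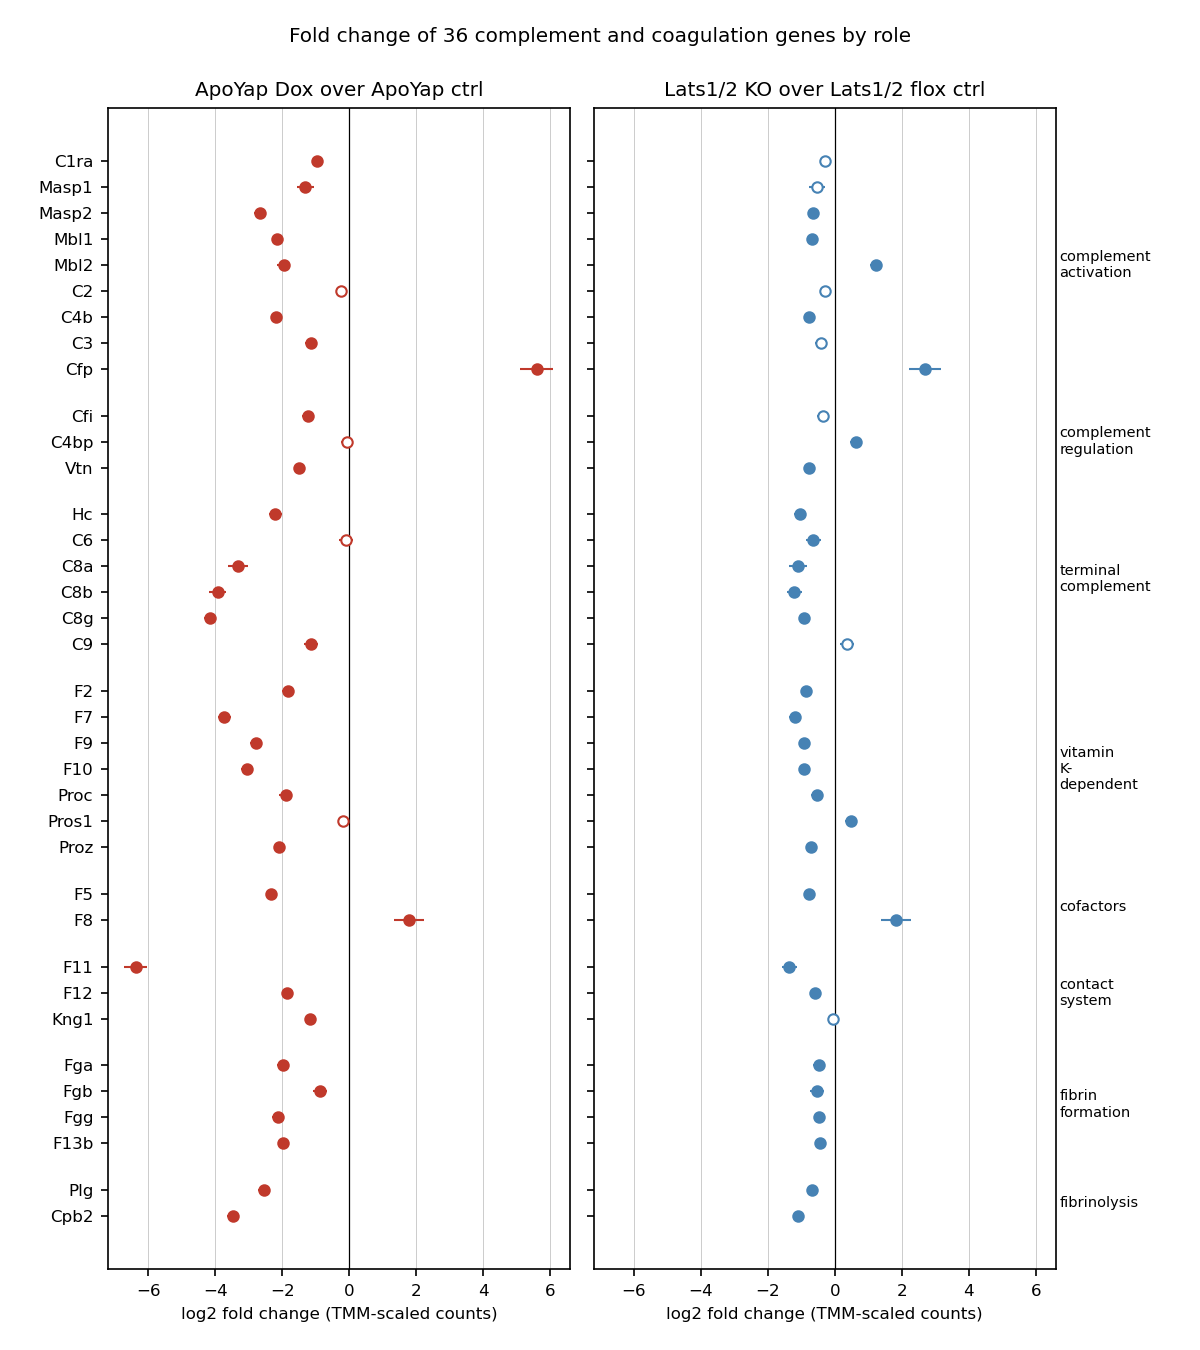
Log2 fold change of 36 members, TMM-scaled, for ApoYap Dox over ApoYap ctrl (left) and Lats1/2 KO over Lats1/2 flox ctrl (right), in order of role; bars are standard errors, filled points passed the adjusted p of 0.05 and open points did not. Most points lie left of 0 in both panels and further left after Yap induction, where F11 reached −6.38, while Cfp and F8 lie to the right in both and Mbl2 lies on opposite sides.

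**Figure D2:**
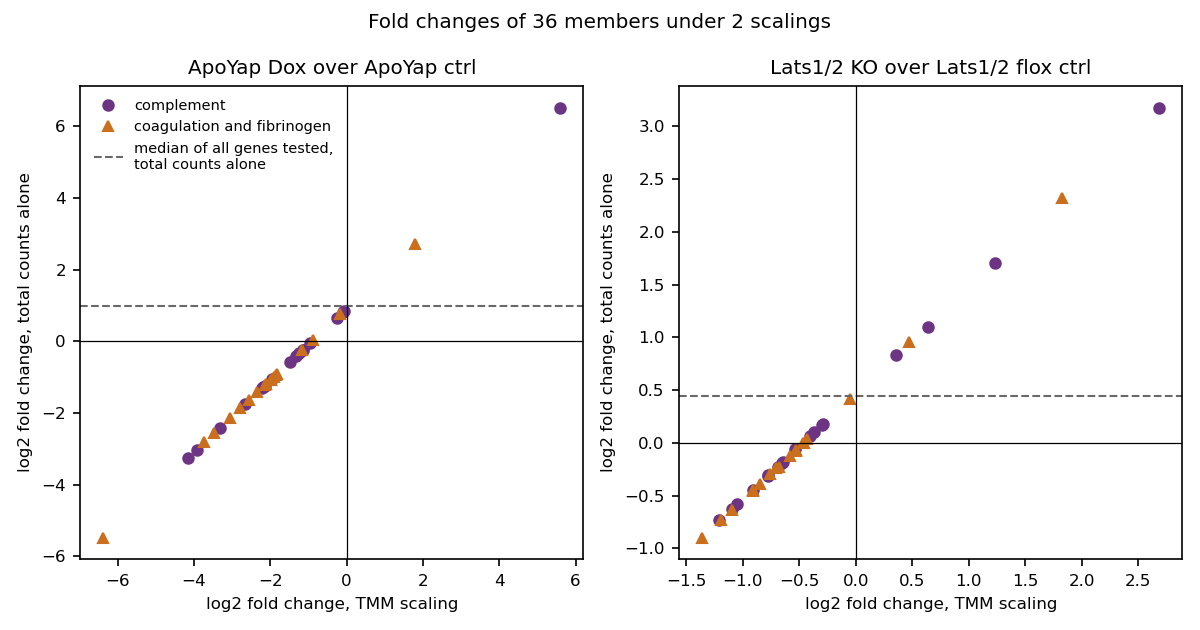
Log2 fold change of the same 36 members with total counts alone (vertical axis) against TMM scaling (horizontal axis), for ApoYap Dox over ApoYap ctrl (left) and Lats1/2 KO over Lats1/2 flox ctrl (right). The points lie on a line that is shifted up, and most members lie below the dashed line at the median of all genes, 0.99 and 0.44.

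Among the recognition molecules of the lectin pathway, Mbl2 was the only member called in opposite directions by the 2 manipulations. Mbl2, a mannose-binding lectin, had 131, 142 and 62.8 CPM in ApoYap Dox libraries, against 407, 424, 419 and 492 CPM in ApoYap ctrl libraries. Mbl2 had 1241, 1041 and 951 CPM in Lats1/2 KO libraries, against 417, 539, 493 and 387 CPM in Lats1/2 flox ctrl libraries. Neither pair of groups overlapped: Mbl2 fell 3.90-fold after Yap induction (log2 −1.96 ± 0.20, adjusted p = 3.2e-09) and rose 2.35-fold in the knockout (1.23 ± 0.18, adjusted p = 1.25e-05), a difference of 3.19 ± 0.27 between the 2 changes (adjusted p = 2.83e-09). In BL/6 AAV-Cre libraries Mbl2 had 726, 675 and 855 CPM, against 422, 439, 448 and 497 CPM in BL/6 ctrl libraries. Those levels did not overlap, yet the difference missed the threshold (0.74 ± 0.18, adjusted p = 0.0698), and the change in the knockout net of the virus in BL/6 was 0.50 ± 0.26 (adjusted p = 0.17). The 250 bases before the start of Mbl2 (RefSeq, GRCm38.p6, chr19:30232678-30232927, plus strand), shown because the gene parts from its group, held none of the 4 motifs searched below.
Mbl2: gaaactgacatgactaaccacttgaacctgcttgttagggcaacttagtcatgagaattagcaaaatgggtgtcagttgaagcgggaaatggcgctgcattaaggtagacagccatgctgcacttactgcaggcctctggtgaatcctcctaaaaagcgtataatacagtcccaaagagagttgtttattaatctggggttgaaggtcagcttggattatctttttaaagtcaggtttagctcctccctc

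Mbl1, the other mannose-binding lectin, fell in both. Mbl1 had 36.9, 39.04 and 25.6 CPM in ApoYap Dox libraries, against 144, 159, 161 and 136 CPM in ApoYap ctrl libraries. Mbl1 had 114, 81.8 and 107 CPM in Lats1/2 KO libraries, against 134, 166, 177 and 175 CPM in Lats1/2 flox ctrl libraries. The groups did not overlap in either comparison, with falls of 4.43-fold (−2.15 ± 0.16, adjusted p = 1.88e-11) and 1.61-fold (−0.69 ± 0.15, adjusted p = 0.000785). Masp2, the protease that the lectins activate to cleave C4 and C2, had 16.5, 22.8 and 14.6 CPM in ApoYap Dox libraries, against 114, 126, 111 and 108 CPM in ApoYap ctrl libraries. Masp2 had 69.6, 52.1 and 73.0 CPM in Lats1/2 KO libraries, against 98.5, 103, 103 and 103 CPM in Lats1/2 flox ctrl libraries. It fell 6.37-fold (−2.67 ± 0.16, adjusted p = 5.59e-13) and 1.57-fold (−0.65 ± 0.15, adjusted p = 0.00122), again without overlap. Masp1, the protease that activates Masp2, was among the lowest members, with 2.17, 2.58 and 1.69 CPM in ApoYap Dox libraries, against 7.49, 4.28, 5.19 and 4.41 CPM in ApoYap ctrl libraries. Masp1 had 9.69, 8.69 and 5.41 CPM in Lats1/2 KO libraries, against 10.4, 12.6, 9.65 and 13.02 CPM in Lats1/2 flox ctrl libraries. It fell after Yap induction (−1.32 ± 0.26, adjusted p = 6.72e-05), while the knockout difference missed the threshold (−0.54 ± 0.24, adjusted p = 0.0776). Without Lats1/2 KO 1 the knockout difference of Masp1 was −0.70 (adjusted p = 0.05, just under the threshold), and adjusted p spanned 0.05 to 0.867 over 14 alternatives. Masp1 was also the only member called between untreated strains, with 10.4, 12.6, 9.65 and 13.02 CPM in Lats1/2 flox ctrl libraries, against 7.07, 5.37, 7.65 and 5.18 CPM in BL/6 ctrl libraries (0.85 ± 0.22, adjusted p = 0.0296). With total counts alone the knockout calls of Mbl1 (−0.23) and Masp2 (−0.19) and the induction call of Masp1 (−0.41) ended.

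The classical pathway genes fell less evenly. C4b, the component that C1 and the lectin proteases cleave first, had 139.5, 147 and 128 CPM in ApoYap Dox libraries, against 638, 659.8, 667 and 546 CPM in ApoYap ctrl libraries. C4b had 362, 290.3 and 296 CPM in Lats1/2 KO libraries, against 396, 588, 616 and 564 CPM in Lats1/2 flox ctrl libraries. The groups were apart in both comparisons, with falls of 4.54-fold (−2.18 ± 0.15, adjusted p = 4.25e-12) and 1.71-fold (−0.78 ± 0.14, adjusted p = 0.000125), and reads could be shared with its near copy C4a, which had 3595 counts in all, against 128498 for C4b. C1ra, a protease of the C1 complex, had 97.7, 124 and 86.3 CPM in ApoYap Dox libraries, against 203, 206, 214 and 176 CPM in ApoYap ctrl libraries. C1ra had 173, 146 and 181 CPM in Lats1/2 KO libraries, against 171, 187, 192 and 269 CPM in Lats1/2 flox ctrl libraries. It fell 1.94-fold after Yap induction (−0.96 ± 0.14, adjusted p = 1.51e-06), whereas the knockout groups overlapped (−0.30 ± 0.14, adjusted p = 0.0904). C2, which supplies the protease of the C3 convertase, passed the test in neither comparison, with 84.9, 90.7 and 73.3 CPM in ApoYap Dox libraries, against 96.7, 105, 111 and 82.6 CPM in ApoYap ctrl libraries. C2 had 77.1, 73.2 and 88.6 CPM in Lats1/2 KO libraries, against 84.6, 107, 95.9 and 103 CPM in Lats1/2 flox ctrl libraries. Neither difference was called (−0.25 ± 0.12, adjusted p = 0.0746 and −0.29 ± 0.12, adjusted p = 0.0689), and with total counts alone C2 was called higher after Yap induction (0.66). In the knockout C1ra was called lower without Lats1/2 flox ctrl 1 (adjusted p = 0.0398, over a range of 0.0398 to 0.733), as was C2 without that library (0.0366) or without Lats1/2 KO 3 (0.036, range 0.036 to 0.339). After Yap induction C2 was called lower without ApoYap Dox 2 (0.0478) or ApoYap ctrl 4 (0.0258, range 1.45e-05 to 0.304), and with total counts alone the calls of C1ra after Yap induction (−0.05) and of C4b in the knockout (−0.31) ended.

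C3, on which all pathways of activation converge, had 1688, 1965 and 1241 CPM in ApoYap Dox libraries, against 3229, 3659, 4036 and 3553 CPM in ApoYap ctrl libraries. C3 had 2881, 2011 and 1768 CPM in Lats1/2 KO libraries, against 2273, 3001, 3408 and 3072 CPM in Lats1/2 flox ctrl libraries. It fell 2.22-fold after Yap induction without overlap (−1.15 ± 0.18, adjusted p = 4.88e-06), and the knockout groups overlapped (−0.40 ± 0.18, adjusted p = 0.0768). The knockout difference passed the test without Lats1/2 KO 1 (−0.64, adjusted p = 0.0125) or without Lats1/2 flox ctrl 1 (−0.51, 0.0305), over a range of 0.0125 to 0.782, and with total counts alone the induction call ended (−0.24). Properdin, encoded by Cfp, stabilises the alternative pathway convertase and moved the other way. Cfp had 247, 224 and 389 CPM in ApoYap Dox libraries, against 5.44, 4.61, 6.86 and 6.92 CPM in ApoYap ctrl libraries. Cfp had 25.1, 62.5 and 27.6 CPM in Lats1/2 KO libraries, against 10.9, 3.29, 6.67 and 3.16 CPM in Lats1/2 flox ctrl libraries. Every library of both manipulated groups was above every library of its controls, with rises of 48.4-fold (5.60 ± 0.49, adjusted p = 5.97e-09) and 6.43-fold (2.68 ± 0.47, adjusted p = 0.000191), and the rise was smaller in the knockout (difference −2.91 ± 0.67, adjusted p = 0.00268). Cfd, factor D of the alternative pathway, had no count in ApoYap Dox, ApoYap ctrl or Lats1/2 KO libraries, against 2.30, 0.909, 2.74 and 0.789 CPM in Lats1/2 flox ctrl libraries. With the floor set at 3 counts over the group, the knockout was at least 24.7-fold below the 60 counts in Lats1/2 flox ctrl. Cfd is 1 of the 10 complement genes counted as lower in the knockout. It passed the filter on low counts through untreated floxed and BL/6 libraries, where it was highest. Untreated libraries also varied, with no count in ApoYap ctrl, so these values cannot show an effect of the knockout on Cfd. Cfd was low everywhere, at 1.34, 0.119, 0.236 and 2.14 CPM in BL/6 ctrl libraries. The adipocyte markers Adipoq, Plin1 and Lep had no count in Lats1/2 flox ctrl libraries. In Lats1/2 KO libraries these markers summed to at most 0.0984 CPM (unscaled), with Lep alone at 0 throughout. What part fat cells had in the level of Cfd was not tested. Cfb, factor B, had 10 counts in all, in 6 of 25 libraries, with at most 3 in 1 library. It lies at chr17:34856374-34862518 (GENCODE M21, GRCm38) and shares 79.5% of its 2825 exon bases with the read-through gene Gm20547, which had 0 counts and also covers 42.8% of the exon bases of C2, so the levels of Cfb and C2 are uncertain.

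Of the regulators of complement, Vtn fell in both manipulations and Cfi after Yap induction, and C4bp rose in the knockout. Vtn encodes vitronectin, which blocks insertion of the terminal complex, and had 776, 792 and 528 CPM in ApoYap Dox libraries, against 1894, 2228, 1839.9 and 1896 CPM in ApoYap ctrl libraries. Vtn had 1239, 1079 and 1061 CPM in Lats1/2 KO libraries, against 1574, 2094, 2206 and 1853 CPM in Lats1/2 flox ctrl libraries. It fell 2.81-fold (−1.49 ± 0.15, adjusted p = 4.77e-09) and 1.71-fold (−0.78 ± 0.15, adjusted p = 0.000215) without overlap. Cfi, factor I, the protease that inactivates C3b and C4b, had 157, 179.7 and 103 CPM in ApoYap Dox libraries, against 332, 379.9, 372 and 299 CPM in ApoYap ctrl libraries. Cfi had 278, 236 and 265 CPM in Lats1/2 KO libraries, against 283, 380.1, 359 and 316 CPM in Lats1/2 flox ctrl libraries. It fell after Yap induction (−1.24 ± 0.17, adjusted p = 4.22e-07), and although the knockout groups did not overlap, the difference missed the threshold (−0.37 ± 0.16, adjusted p = 0.0784). C4bp, a cofactor of factor I that binds C4b, had 262, 305 and 205 CPM in ApoYap Dox libraries, against 251, 293, 298 and 235 CPM in ApoYap ctrl libraries. C4bp had 479, 423 and 558 CPM in Lats1/2 KO libraries, against 252, 345, 348 and 306 CPM in Lats1/2 flox ctrl libraries. The induction groups overlapped fully (−0.06 ± 0.17, adjusted p = 0.75, and 0.84 with total counts alone, where it was called higher), and in the knockout C4bp rose 1.55-fold without overlap (0.64 ± 0.17, adjusted p = 0.00449). Cfi was called lower in the knockout without Lats1/2 flox ctrl 1 (−0.44, adjusted p = 0.0462, range 0.0462 to 0.622), and with total counts alone its induction call (−0.33) and the knockout call of Vtn (−0.31) ended.

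The terminal genes, whose products form the pore of the membrane attack complex, held the largest falls of complement after Yap induction, and these were in the 3 chains of C8. C8g had 20.3, 26.6 and 15.6 CPM in ApoYap Dox libraries, against 364, 399, 355 and 379.9 CPM in ApoYap ctrl libraries. C8g had 205, 191 and 267 CPM in Lats1/2 KO libraries, against 437, 419, 395 and 414 CPM in Lats1/2 flox ctrl libraries. It fell 17.95-fold (−4.17 ± 0.16, adjusted p = 3.33e-16) and 1.88-fold (−0.91 ± 0.14, adjusted p = 1.43e-05), with the groups far apart. C8b had 66.4, 81.5 and 43.9 CPM in ApoYap Dox libraries, against 958, 1132, 1019.6 and 789.9 CPM in ApoYap ctrl libraries. C8b had 579.9, 464 and 469 CPM in Lats1/2 KO libraries, against 979.9, 946, 926 and 1799.6 CPM in Lats1/2 flox ctrl libraries, where the fourth floxed control stood apart. C8b fell 15.2-fold (−3.93 ± 0.25, adjusted p = 1.27e-12) and 2.31-fold (−1.21 ± 0.22, adjusted p = 0.000119), without overlap. C8a had 50.4, 83.0 and 24.3 CPM in ApoYap Dox libraries, against 585, 552, 584 and 386 CPM in ApoYap ctrl libraries. C8a had 466, 310.4 and 278 CPM in Lats1/2 KO libraries, against 569, 876, 795 and 760.5 CPM in Lats1/2 flox ctrl libraries. Its falls were 10.0-fold (−3.33 ± 0.31, adjusted p = 2.42e-09) and 2.13-fold (−1.09 ± 0.28, adjusted p = 0.00319), and again no library of the manipulated groups reached a control.

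Hc encodes C5, the component whose cleavage starts the terminal pathway, and had 101, 134 and 72.3 CPM in ApoYap Dox libraries, against 475, 487, 549 and 388 CPM in ApoYap ctrl libraries. Hc had 362, 271 and 268 CPM in Lats1/2 KO libraries, against 447, 684, 628 and 724 CPM in Lats1/2 flox ctrl libraries. It fell 4.64-fold (−2.21 ± 0.19, adjusted p = 2.46e-10) and 2.07-fold (−1.05 ± 0.18, adjusted p = 7.38e-05) without overlap. C9, the component that polymerises into the pore, had 574, 727 and 364 CPM in ApoYap Dox libraries, against 1293, 1388, 1333 and 899 CPM in ApoYap ctrl libraries. C9 had 1639, 1402 and 1671 CPM in Lats1/2 KO libraries, against 838, 1328, 1111 and 1633 CPM in Lats1/2 flox ctrl libraries. It fell 2.21-fold after Yap induction (−1.15 ± 0.22, adjusted p = 5.1e-05, and −0.24 and not called with total counts alone). In the knockout the C9 groups overlapped (0.36 ± 0.21, adjusted p = 0.19, and 0.83 and called higher with total counts alone), and the 2 changes of C9 differed by 1.50 ± 0.30, adjusted p = 0.000437. C6, an early part of the complex, had 241, 210.1 and 374 CPM in ApoYap Dox libraries, against 315, 310.0, 363 and 195 CPM in ApoYap ctrl libraries. C6 had 390.1, 293 and 493 CPM in Lats1/2 KO libraries, against 514, 568, 570.3 and 794 CPM in Lats1/2 flox ctrl libraries. The induction groups overlapped (−0.11 ± 0.21, adjusted p = 0.677, and 0.82 with total counts alone, where it was called higher). In the knockout C6 was 1.56-fold lower and passed the test (−0.64 ± 0.22, adjusted p = 0.0216), but not without Lats1/2 KO 1 (adjusted p = 0.0607), Lats1/2 KO 2 (0.154) or Lats1/2 flox ctrl 4 (0.0837), over a range of 0.00773 to 0.501 in 14 alternatives.

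Of the vitamin K-dependent factors, proteins that bind membranes through carboxylated glutamates, F7, F9 and F10 fell most. F7, which starts coagulation with tissue factor, had 8.06, 10.1 and 4.73 CPM in ApoYap Dox libraries, against 103, 105, 91.8 and 105 CPM in ApoYap ctrl libraries. F7 had 54.5, 38.0 and 54.6 CPM in Lats1/2 KO libraries, against 99.5, 119, 114 and 116 CPM in Lats1/2 flox ctrl libraries. Its falls were 13.3-fold (−3.73 ± 0.19, adjusted p = 4.55e-14) and 2.28-fold (−1.19 ± 0.17, adjusted p = 8.4e-06), with no overlap. F10, the protease of prothrombinase, had 61.1, 89.5 and 55.1 CPM in ApoYap Dox libraries, against 539, 602, 563 and 578 CPM in ApoYap ctrl libraries. F10 had 366, 257 and 357 CPM in Lats1/2 KO libraries, against 586, 602, 578 and 695 CPM in Lats1/2 flox ctrl libraries. It fell 8.32-fold (−3.06 ± 0.17, adjusted p = 8.72e-14) and 1.88-fold (−0.91 ± 0.15, adjusted p = 4.56e-05), with the groups apart. F9, the protease that activates factor X together with factor VIII, had 59.0, 79.4 and 52.0 CPM in ApoYap Dox libraries, against 406, 481, 443 and 418 CPM in ApoYap ctrl libraries. F9 had 241, 178 and 245 CPM in Lats1/2 KO libraries, against 320.1, 421, 432 and 489 CPM in Lats1/2 flox ctrl libraries. It fell 6.88-fold (−2.78 ± 0.17, adjusted p = 7.16e-13) and 1.88-fold (−0.91 ± 0.16, adjusted p = 7.5e-05), with the groups apart. F2, prothrombin, had 381, 427 and 273 CPM in ApoYap Dox libraries, against 1266, 1418, 1169 and 1273 CPM in ApoYap ctrl libraries. F2 had 589.6, 494 and 693 CPM in Lats1/2 KO libraries, against 947, 1104, 1160.4 and 1051 CPM in Lats1/2 flox ctrl libraries. Its falls were 3.56-fold (−1.83 ± 0.17, adjusted p = 6.82e-10) and 1.80-fold (−0.85 ± 0.16, adjusted p = 0.000204), without overlap.

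The anticoagulant members of the same family split. Proz, whose product helps an inhibitor of factor Xa, had 13.1, 14.4 and 9.27 CPM in ApoYap Dox libraries, against 49.9, 58.9, 51.9 and 51.3 CPM in ApoYap ctrl libraries. Proz had 38.9, 33.3 and 41.2 CPM in Lats1/2 KO libraries, against 56.1, 68.3, 59.3 and 63.4 CPM in Lats1/2 flox ctrl libraries. It fell 4.32-fold (−2.11 ± 0.13, adjusted p = 5.59e-13) and 1.63-fold (−0.71 ± 0.12, adjusted p = 5.85e-05, not called with total counts alone at −0.24). Proc, protein C, which inactivates factors V and VIII, had 93.9, 112 and 71.0 CPM in ApoYap Dox libraries, against 356, 358, 317 and 343 CPM in ApoYap ctrl libraries. Proc had 204, 148 and 247 CPM in Lats1/2 KO libraries, against 267, 297, 293 and 295 CPM in Lats1/2 flox ctrl libraries. It fell 3.72-fold after Yap induction (−1.90 ± 0.20, adjusted p = 5.8e-09) and 1.44-fold in the knockout (−0.53 ± 0.19, adjusted p = 0.0267), all without overlap. Pros1, protein S, the cofactor of protein C, had 46.8, 45.0 and 52.3 CPM in ApoYap Dox libraries, against 51.9, 59.9, 52.5 and 52.3 CPM in ApoYap ctrl libraries. Pros1 had 61.2, 84.2 and 61.7 CPM in Lats1/2 KO libraries, against 45.1, 50.3, 50.98 and 53.1 CPM in Lats1/2 flox ctrl libraries. The induction groups overlapped (−0.17 ± 0.16, adjusted p = 0.332, and 0.75 with total counts alone, where it was called higher), and in the knockout Pros1 rose 1.39-fold without overlap (0.47 ± 0.16, adjusted p = 0.0183). Both knockout calls depended on single libraries. The call of Proc ended without Lats1/2 KO 1 (adjusted p = 0.0607), Lats1/2 KO 2 (0.202) or Lats1/2 flox ctrl 2 (0.0519), over a range of 0.00744 to 0.731. The call of Pros1 ended without Lats1/2 KO 2 (0.186) or Lats1/2 flox ctrl 1 (0.0508), over a range of 9.74e-05 to 0.186.

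The 2 cofactors went opposite ways. F5, the cofactor of factor X, had 136, 159 and 87.8 CPM in ApoYap Dox libraries, against 618, 624, 653 and 681 CPM in ApoYap ctrl libraries. F5 had 309.9, 261 and 372 CPM in Lats1/2 KO libraries, against 477, 536, 555 and 561 CPM in Lats1/2 flox ctrl libraries. It fell 5.05-fold (−2.34 ± 0.16, adjusted p = 6.75e-12) and 1.69-fold (−0.76 ± 0.15, adjusted p = 0.000379, and −0.30 and not called with total counts alone), without overlap. F8, the cofactor of factor IX, had 34.1, 24.97 and 39.8 CPM in ApoYap Dox libraries, against 7.21, 7.38, 11.3 and 12.4 CPM in ApoYap ctrl libraries. F8 had 30.7, 74.6 and 29.2 CPM in Lats1/2 KO libraries, against 22.3, 7.04, 11.8 and 9.47 CPM in Lats1/2 flox ctrl libraries. Every manipulated library was above every control, with rises of 3.46-fold (1.79 ± 0.45, adjusted p = 0.0015) and 3.54-fold (1.83 ± 0.45, adjusted p = 0.00302). The difference between the 2 changes of F8 was 0.03 ± 0.64, with a 95% interval of −1.22 to 1.29.

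F8 and Cfp moved together with markers of the cells they are known from. The 11 sinusoidal endothelial markers summed to 941 to 1828 CPM in ApoYap Dox libraries, against 60.3 to 153 CPM in ApoYap ctrl libraries, and 10 of them were called higher. They summed to 454 to 1211 CPM in Lats1/2 KO libraries, against 57.9 to 184 CPM in Lats1/2 flox ctrl libraries, and all 11 were called higher, and none was at 0 in a group. There were 3.99 to 5.26 counts of F8 for every 100 counts of these markers in ApoYap Dox libraries, against 6.85 to 10.9 in ApoYap ctrl libraries. The ratio was 6.83 to 7.94 in Lats1/2 KO libraries, against 9.24 to 13.6 in Lats1/2 flox ctrl libraries, so there was less F8 per marker count in both manipulated groups. For every 100 counts of the 14 macrophage markers, all of which were called higher in both manipulations, there were 2.86 to 3.13 counts of Cfp in ApoYap Dox libraries, against 2.95 to 5.22 in ApoYap ctrl libraries. In Lats1/2 KO libraries the ratio was 3.01 to 3.31, against 2.35 to 3.91 in Lats1/2 flox ctrl libraries. Over all 25 libraries the ratio lay between 2.35 and 5.22. What part these cells had in the rise of Cfp and F8 was not tested. Neutrophil markers summed to 22.0 to 59.3 CPM in ApoYap Dox libraries, against 0.257 to 1.32 CPM in ApoYap ctrl libraries, with Ly6g at 0 in both.

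**Figure D3:**
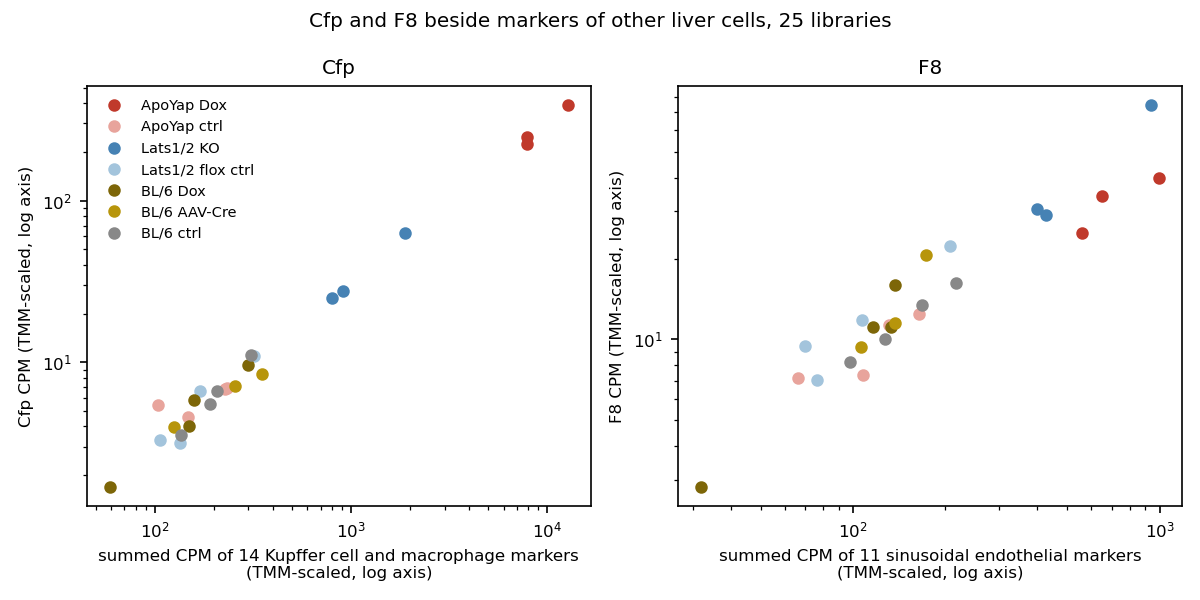
Level of Cfp against the summed level of 14 Kupffer cell and macrophage markers (left), and of F8 against that of 11 sinusoidal endothelial markers (right), in TMM-scaled CPM on log axes (the sums in the text are unscaled), 1 point per library for 25 libraries, coloured by group. ApoYap Dox and Lats1/2 KO libraries lie at the upper right of both panels, and a BL/6 Dox library lies at the lower left.

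The contact system held the largest fall of any member measured. F11, the protease that contact activation and thrombin switch on, had 0.542, 0.181 and 0.0483 CPM in ApoYap Dox libraries, against 21.7, 31.7, 21.3 and 21.4 CPM in ApoYap ctrl libraries. F11 had 13.3, 9.51 and 15.5 CPM in Lats1/2 KO libraries, against 32.5, 29.5, 27.6 and 41.4 CPM in Lats1/2 flox ctrl libraries. It fell 83.1-fold after Yap induction (−6.38 ± 0.34, adjusted p = 1.48e-13), to under 1 CPM in every library, and 2.56-fold in the knockout (−1.36 ± 0.23, adjusted p = 6.86e-05), and the 2 falls differed by 5.02 ± 0.42, adjusted p = 3.46e-09. The fall after Yap induction rests on 20 counts in ApoYap Dox libraries, 15 of them in the first. It was −7.56 on the log2 scale without that library and −5.48 with total counts alone, with every other alternative between them. The 250 bases before its start (RefSeq, GRCm38.p6, chr8:45262032-45262281, minus strand) are shown because no member fell further, and they held none of the 4 motifs searched below.
F11: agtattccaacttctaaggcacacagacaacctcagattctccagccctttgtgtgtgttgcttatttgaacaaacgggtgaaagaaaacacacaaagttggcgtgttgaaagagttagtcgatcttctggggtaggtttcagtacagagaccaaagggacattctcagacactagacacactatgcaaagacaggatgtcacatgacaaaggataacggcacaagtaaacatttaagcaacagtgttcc

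F12, which starts the contact pathway, had 133, 156 and 115 CPM in ApoYap Dox libraries, against 498, 503, 445 and 503 CPM in ApoYap ctrl libraries. F12 had 293, 221 and 308 CPM in Lats1/2 KO libraries, against 397, 393, 383 and 467 CPM in Lats1/2 flox ctrl libraries. It fell 3.61-fold (−1.85 ± 0.15, adjusted p = 5e-11) and 1.497-fold (−0.58 ± 0.14, adjusted p = 0.00179, and −0.12 and not called with total counts alone), without overlap. Kng1, high-molecular-weight kininogen, the precursor of bradykinin, had 758, 1009 and 652 CPM in ApoYap Dox libraries, against 1861, 1771, 1824 and 1742 CPM in ApoYap ctrl libraries. Kng1 had 1888, 1494 and 1908 CPM in Lats1/2 KO libraries, against 1695, 1856, 1747 and 2013 CPM in Lats1/2 flox ctrl libraries. It fell 2.23-fold after Yap induction without overlap (−1.16 ± 0.14, adjusted p = 4.42e-08). The knockout groups overlapped (−0.05 ± 0.13, adjusted p = 0.793, and 0.41 with total counts alone, where Kng1 was called higher), and the 2 changes differed by 1.11 ± 0.19, adjusted p = 6.64e-05. Reads of Kng1 could be shared with its near copy Kng2, which had 55269 counts in all, against 474331 for Kng1.

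The 3 fibrinogen chains, which assemble into 1 protein and whose genes lie side by side on chromosome 3, all fell after Yap induction, by 1.84-fold to 4.38-fold. Fga had 788, 1056 and 547 CPM in ApoYap Dox libraries, against 3258, 3385, 3434 and 2469 CPM in ApoYap ctrl libraries. Fgg had 839, 1016 and 529 CPM in ApoYap Dox libraries, against 3749, 3754, 3598 and 2831 CPM in ApoYap ctrl libraries. Fgb had 5572, 6265 and 3189.6 CPM in ApoYap Dox libraries, against 13360.2, 8636, 7711 and 7167 CPM in ApoYap ctrl libraries. No chain overlapped its controls. Fga fell 3.93-fold (−1.98 ± 0.19, adjusted p = 1.32e-09) and Fgg 4.38-fold (−2.13 ± 0.18, adjusted p = 2.49e-10). Fgb fell 1.84-fold (−0.88 ± 0.21, adjusted p = 0.000644), and with total counts alone its value had the other sign (0.032, not called). Among the ApoYap ctrl libraries Fgb was highest in the first and Fga and Fgg were lowest in the fourth.

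In the knockout the fibrinogen falls were small and close to the threshold. Fga had 2733, 1887 and 1764 CPM in Lats1/2 KO libraries, against 2653, 2924, 3068 and 3069 CPM in Lats1/2 flox ctrl libraries. Fgg had 2390.2, 1738 and 1671 CPM in Lats1/2 KO libraries, against 2448, 2729, 2779 and 2702 CPM in Lats1/2 flox ctrl libraries. Fgb had 8786, 6154 and 5434 CPM in Lats1/2 KO libraries, against 8887, 9543, 10432 and 10319.5 CPM in Lats1/2 flox ctrl libraries. The first knockout library was the highest for each chain, and it overlapped the controls for Fga alone. Fga fell 1.38-fold (−0.46 ± 0.18, adjusted p = 0.0422, and 0.0034 with total counts alone), as did Fgg (−0.46 ± 0.17, adjusted p = 0.036, and 0.0017 with total counts alone), and Fgb fell 1.44-fold (−0.53 ± 0.21, adjusted p = 0.0457). All 3 calls ended without Lats1/2 KO 2, Lats1/2 KO 3, or Lats1/2 flox ctrl 2, 3 or 4, each left out in turn, with adjusted p of 0.0592 to 0.183. Over 14 alternatives the highest adjusted p was 0.99 for Fga, 0.804 for Fgb and 0.995 for Fgg. The change in the knockout less that after Yap induction was called for Fga (1.52 ± 0.25, adjusted p = 5.3e-05) and Fgg (1.67 ± 0.24, adjusted p = 1.12e-05) and not for Fgb (0.35 ± 0.29, adjusted p = 0.391, 95% interval −0.22 to 0.92).

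The stretches before the 3 fibrinogen genes are shown because the genes are neighbours that fell together after Yap induction. They come from RefSeq (GRCm38.p6), with Fga at chr3:83025903-83026075 on the plus strand, Fgb at chr3:83049864-83050113 on the minus strand and Fgg at chr3:83007474-83007723 on the plus strand. Capitals mark matches to 4 motifs, each searched on both strands. The first was GTTAAT, part of the site of the hepatocyte factor HNF1. The second was CAAAGTC, from the site of the hepatocyte factor HNF4. The third was CTGGGAA, known from fibrinogen promoters as an element of the response to IL-6. The last was CATTCC, the site of TEAD proteins, the DNA-binding partners of YAP. The stretch for Fga is shorter because bases inside its annotated transcript, which hold its GTTAAT, were left out.
Fga: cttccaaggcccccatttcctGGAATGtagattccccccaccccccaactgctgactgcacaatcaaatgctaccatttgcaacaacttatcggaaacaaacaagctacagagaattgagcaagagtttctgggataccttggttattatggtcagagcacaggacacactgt
Fgb: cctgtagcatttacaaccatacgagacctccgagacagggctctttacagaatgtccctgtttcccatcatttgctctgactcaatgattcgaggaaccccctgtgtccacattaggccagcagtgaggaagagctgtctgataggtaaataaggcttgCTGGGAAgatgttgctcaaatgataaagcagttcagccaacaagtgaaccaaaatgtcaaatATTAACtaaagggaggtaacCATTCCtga
Fgg: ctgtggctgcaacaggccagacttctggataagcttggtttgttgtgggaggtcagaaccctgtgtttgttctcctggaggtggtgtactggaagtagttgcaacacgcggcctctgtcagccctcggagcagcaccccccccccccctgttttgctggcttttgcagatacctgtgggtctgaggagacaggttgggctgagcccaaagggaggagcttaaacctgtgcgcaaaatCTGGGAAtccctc
Among the 29 members with a RefSeq promoter, the HNF1 letters were in 11 (37.9%), against 6.43% of 32851 promoters of the same length. The TEAD letters were in 8 (27.6%, against 12.6%), the IL-6 element in 5 (17.2%, against 9.10%) and the HNF4 letters in 1 (3.45%, against 3.84%). The 8 with the TEAD letters, C1ra, F5, F8, F9, Fga, Fgb, Proz and Vtn, included falls and the rise of F8. A member counted if any of its promoters matched, while the wider share is per promoter, which favours members with several promoters. Fga counts for HNF1 by the GTTAAT inside its annotated transcript. A match is only a run of letters and not a site shown to be bound.

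F13b, the carrier subunit of the enzyme that cross-links fibrin, had 53.9, 72.2 and 51.9 CPM in ApoYap Dox libraries, against 212, 253, 223 and 254 CPM in ApoYap ctrl libraries. F13b had 186, 179 and 228 CPM in Lats1/2 KO libraries, against 249.7, 249.95, 269.5 and 295 CPM in Lats1/2 flox ctrl libraries. It fell 3.97-fold (−1.99 ± 0.13, adjusted p = 3.18e-12) and 1.35-fold (−0.43 ± 0.13, adjusted p = 0.00867, and 0.037 with total counts alone), without overlap. The knockout call ended without Lats1/2 KO 2 (−0.36, adjusted p = 0.0656, range 0.00254 to 0.814). Of the genes that act on the clot, Plg, plasminogen, the precursor of plasmin that dissolves fibrin, had 363, 492 and 302 CPM in ApoYap Dox libraries, against 2330.1, 2298, 2257 and 2171 CPM in ApoYap ctrl libraries. Plg had 1340.0, 924 and 1416 CPM in Lats1/2 KO libraries, against 1584, 2089, 2073 and 2128 CPM in Lats1/2 flox ctrl libraries. It fell 5.87-fold (−2.55 ± 0.17, adjusted p = 3.69e-12) and 1.60-fold (−0.68 ± 0.16, adjusted p = 0.00153, and −0.22 and not called with total counts alone), without overlap. Cpb2, a carboxypeptidase that slows fibrin breakdown, had 30.9, 41.7 and 22.8 CPM in ApoYap Dox libraries, against 365, 382, 383 and 279.5 CPM in ApoYap ctrl libraries. Cpb2 had 163, 122 and 189.8 CPM in Lats1/2 KO libraries, against 298, 357, 344 and 351 CPM in Lats1/2 flox ctrl libraries. It fell 11.1-fold (−3.47 ± 0.18, adjusted p = 6.02e-14) and 2.14-fold (−1.09 ± 0.16, adjusted p = 1.48e-05), so the promoting and the slowing gene of fibrin breakdown fell together, each without overlap.

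**Figure D4:**
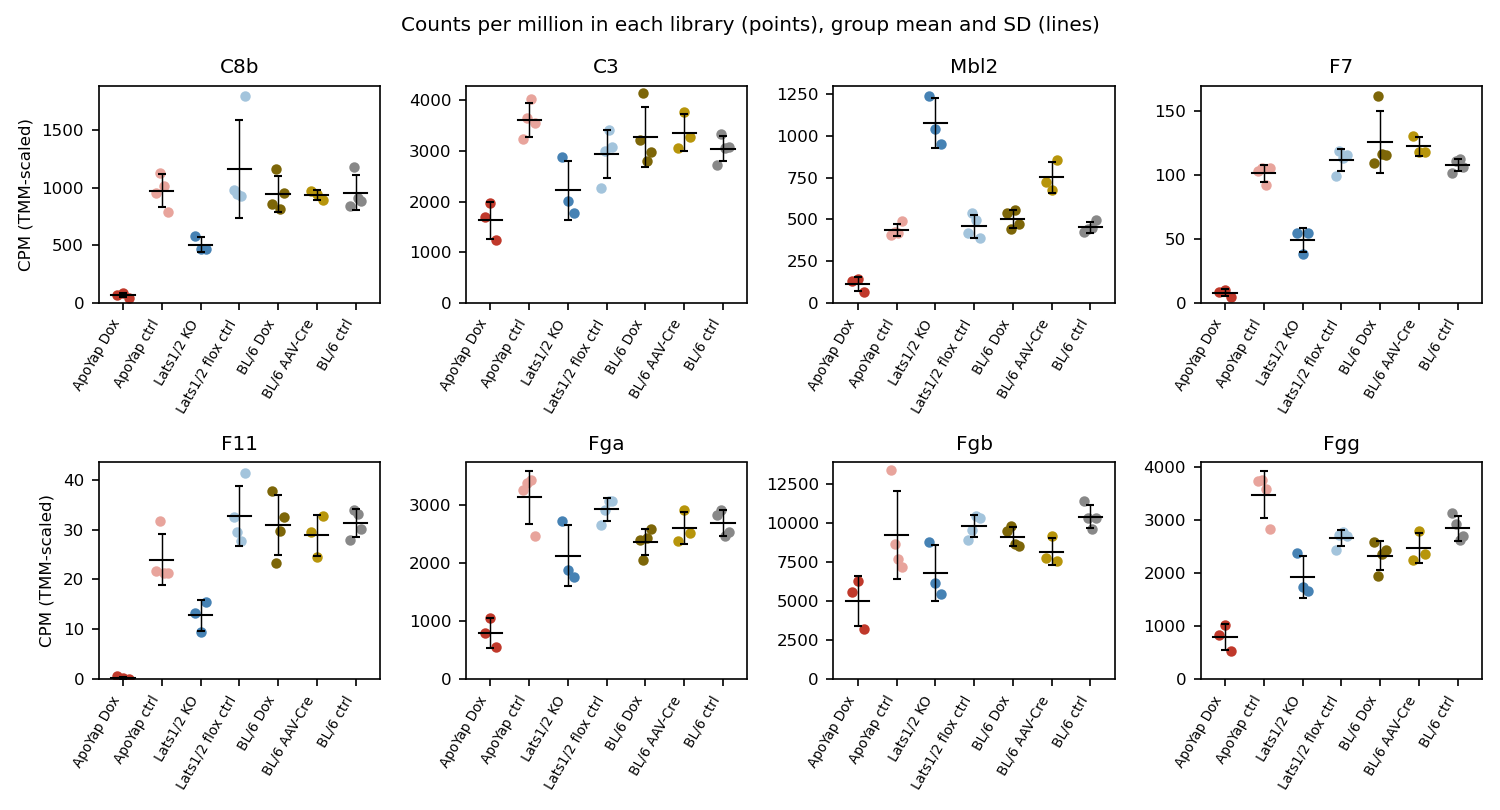
CPM (TMM-scaled) of 8 members in each of 25 libraries; points are libraries, horizontal lines group means and bars standard deviations. ApoYap Dox libraries lie below all others for 6 of the 8 genes, for C3 and Fgb they overlap Lats1/2 KO, and Mbl2 is highest in Lats1/2 KO.

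Complement and coagulation parted by nearly the same amount in each ApoYap Dox library. The mean log2(CPM + 0.5) of 18 complement genes, relative to BL/6 ctrl, was −1.42, −1.20 and −1.77 in the 3 ApoYap Dox libraries, and that of 18 coagulation and fibrinogen genes was −2.02, −1.81 and −2.40. Complement less coagulation was 0.60 to 0.63 in these libraries, against −0.19 to 0.04 in ApoYap ctrl libraries. It was 0.26 to 0.44 in Lats1/2 KO libraries, against 0.00 to 0.17 in Lats1/2 flox ctrl libraries, and −0.18 to 0.16 in the 11 BL/6 libraries. These are differences of means over genes that include Cfp and Mbl2 in complement and F8 in coagulation. After Yap induction Cfp rose by 5.60 and F8 by 1.79 on the log2 scale, which raises the means that hold them. The difference without these genes was not computed. In the knockout the medians of the fitted changes were close, at −0.59 for 18 complement genes (without Cfd) and −0.63 for 18 coagulation and fibrinogen genes. As a share of all counts, the 38 genes made up 2.35 ± 0.49% in ApoYap Dox libraries and 3.38 ± 0.32% in ApoYap ctrl libraries (SD, n = 3 and 4). They made up 3.03 ± 0.37% in Lats1/2 KO libraries and 3.02 ± 0.25% in Lats1/2 flox ctrl libraries (SD, n = 3 and 4), which is within the spread.

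**Figure D5:**
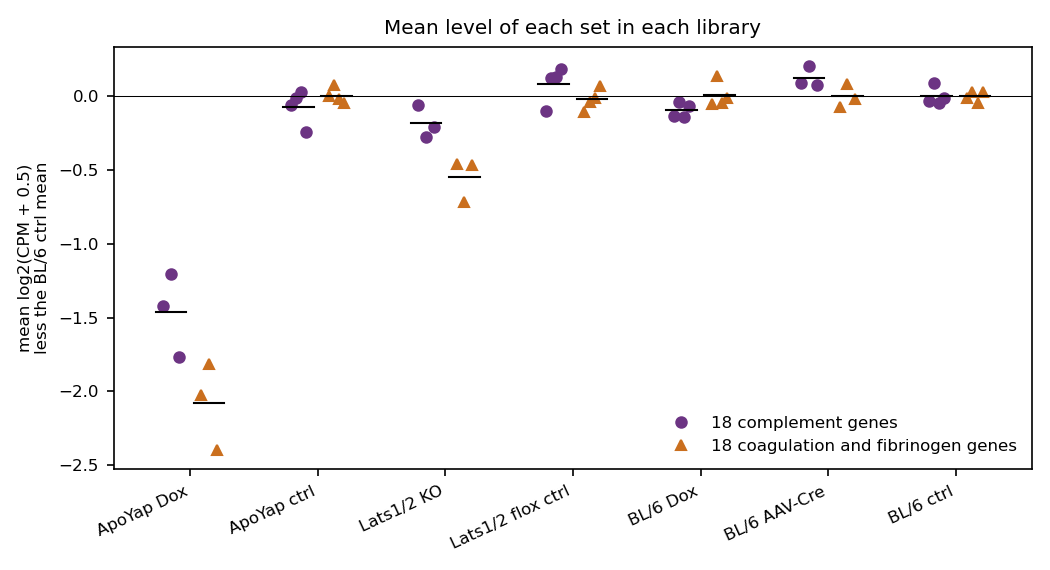
Mean log2(CPM + 0.5) of 18 complement genes (circles) and 18 coagulation and fibrinogen genes (triangles) in each library, less the mean of BL/6 ctrl; lines are group means. In ApoYap Dox and Lats1/2 KO libraries the triangles lie below the circles, by 0.61 and 0.37 on average.

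Genes that fell further after Yap induction tended to be those that fell further in the knockout. Across 36 members the 2 log2 changes had a Pearson r of 0.84 and a Spearman rho of 0.84, and across 34 without Cfp and F8 these were 0.65 and 0.82. Genes are not independent replicates, and although the comparisons have separate controls, the libraries were fitted together. In 33 of 36 the change after Yap induction lay below that in the knockout. The correlations and this count were not computed over all genes tested, so whether they are particular to these members was not tested. The knockout change less the induction change was called higher for 30 members, where 17.4% of all genes tested were, and lower for 1, Cfp, where 12.4% were (29.8% in all). The members not called there were Masp1, C2, Cfd, C6, F8 and Fgb.

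No member passed the test with doxycycline or virus alone in BL/6. Between BL/6 Dox and BL/6 ctrl libraries no member was called, where 0.100% of all genes tested were called lower and 0.0231% higher (0.123% in all). An unadjusted p under 0.05 was reached by 3 of 37 members (Cfd, Proz and F13b), against 1543 of all 12970 genes tested. DESeq2 called no member either. Proz, the clearest, had 65.8, 69.7, 68.4 and 68.4 CPM in BL/6 Dox libraries, against 50.9, 56.3, 61.2 and 62.1 CPM in BL/6 ctrl libraries (0.24 ± 0.11, adjusted p = 0.387). Between BL/6 AAV-Cre and BL/6 ctrl libraries no member was called, where 0.0463% of all genes tested were called lower and 0.254% higher (0.301% in all). Here 3 of 37 members had an unadjusted p under 0.05 (Masp1, Mbl2 and C4bp), against 1720 of all 12970 genes tested. DESeq2 called Mbl2 higher there (adjusted p = 0.0165). Masp1 had 10.7, 13.01 and 9.68 CPM in BL/6 AAV-Cre libraries, against 7.07, 5.37, 7.65 and 5.18 CPM in BL/6 ctrl libraries (0.81 ± 0.24, adjusted p = 0.138). The BL/6 virus libraries were taken at 24 hours and the knockout at 1 week, so the 2 differ in time.

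Net of the change in BL/6 with doxycycline, 30 members were called lower and 2 higher after Yap induction, where 27.4% and 26.7% of all genes tested were (54.1% in all), and these were the genes called without that subtraction. The call of C9 ended with its sign unchanged under 9 of 23 alternatives and that of Fgb under 13 of 23. With total counts alone, a further alternative, both changed sign and were not called (0.16, adjusted p = 0.598 for C9, and 0.24, adjusted p = 0.413 for Fgb). Without ApoYap Dox 3 alone the adjusted p was 0.116 for C9 and 0.153 for Fgb. The call of C9 also ended without ApoYap ctrl 2 or 3, BL/6 Dox 1 or 4 or BL/6 ctrl 3 or 4, and that of Fgb without ApoYap ctrl 1, BL/6 Dox 1 or 2 or BL/6 ctrl 2, 3 or 4, each in turn. Net of the change in BL/6 with virus, 19 members were called lower and 1 higher in the knockout, where 11.4% and 13% of all genes tested were. The rises of Mbl2, C4bp, Pros1 and F8 in the knockout were not called in that test, and neither were the falls of Masp2, C6, Proc, F12, Fga, Fgb and Fgg. Of these, C6 was called without Lats1/2 KO 3 (0.0246) or BL/6 ctrl 2 (0.0409, range 0.0246 to 0.433 over 21 alternatives), and F12 without Lats1/2 KO 3 (0.0336, range 0.0336 to 0.851). F8 was at 1.63 ± 0.65, adjusted p = 0.0734, and was called without Lats1/2 KO 3 (0.0478), Lats1/2 flox ctrl 1 (0.0228) or BL/6 AAV-Cre 2 (0.0429, range 0.0228 to 0.276 over 21 alternatives). C4bp was at 0.23 ± 0.24, adjusted p = 0.526, and Pros1 at 0.25 ± 0.22, adjusted p = 0.444, and was called without BL/6 AAV-Cre 2 (0.0203, range 0.0203 to 0.883). Among the falls, the calls of C8a (without Lats1/2 KO 2 or 3, Lats1/2 flox ctrl 2, BL/6 AAV-Cre 1 or 2 or BL/6 ctrl 1), F5 (without Lats1/2 KO 1 or 2 or BL/6 AAV-Cre 3), Plg (without Lats1/2 KO 2 or BL/6 AAV-Cre 2 or 3), Vtn (without BL/6 AAV-Cre 1) and F2 (without 12 libraries, each in turn) ended, with adjusted p of 0.0506 to 0.152. Masp1, not called in the knockout itself, was called lower net of the virus (−1.34 ± 0.34, adjusted p = 0.00541), with the BL/6 AAV-Cre libraries all above the BL/6 ctrl libraries. Between the untreated ApoYap ctrl and BL/6 ctrl libraries no member was called, where 0.439% of all genes tested were. Of 37 members 2 had an unadjusted p under 0.05 (Cfd and C6), against 975 of all 12970 genes tested, and DESeq2 called Cfd lower. Between Lats1/2 flox ctrl and BL/6 ctrl libraries 1 member, Masp1, was called, where 3.15% of all genes tested were called higher and 0.971% lower (4.12% in all), and its call ended without any 1 of 5 libraries (Lats1/2 flox ctrl 2 or 4, BL/6 ctrl 1, 2 or 4).

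The rest of the pathways, counted from fixed lists, was mixed. Of 25 other complement genes tested, 12 rose and 11 fell after Yap induction, where 35.0% of all genes tested were called higher and 32.0% lower. In the knockout 13 rose and 9 fell, where 20.6% of all genes tested were called higher and 17.4% lower. The genes that rose after Yap induction were C1qa, C1qb, C1qc, Fcna, Vsig4, Cd55, receptors (C3ar1, C5ar1 and C5ar2) and integrins (Itgam, Itgax and Itgb2), many of them known from macrophages, and 4 of them (C1qa, C1qb, C1qc and Vsig4) also stand among the macrophage markers above. Itgam, a chain of complement receptor 3, averaged 45.3 ± 9.42 CPM in ApoYap Dox libraries and 0.355 ± 0.25 CPM in ApoYap ctrl libraries (SD, n = 3 and 4), and rose (7.04 ± 0.50, adjusted p = 2.1e-11). C1rl, which is related to C1r, fell (−2.83 ± 0.19, adjusted p = 3.6e-12).

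Of 24 other coagulation and fibrinolysis genes tested, 10 rose and 11 fell after Yap induction, and 11 rose and 6 fell in the knockout, against the same shares of all genes tested. The 10 that rose after Yap induction were 41.7% of the list, near the 35.0% of all genes tested. Serpinc1, antithrombin, averaged 202 ± 31.3 CPM in ApoYap Dox libraries and 1238 ± 42.1 CPM in ApoYap ctrl libraries (SD, n = 3 and 4), and fell (−2.61 ± 0.13, adjusted p = 2.2e-14), as did Hgfac (−2.94 ± 0.18, adjusted p = 7.5e-13) and Tfpi2 (−3.54 ± 0.24, adjusted p = 4.7e-12). Those that rose included Thbd, Procr and Vwf, known from endothelium, and Plau and Plaur of fibrinolysis. Of 9 genes of glutamate carboxylation and factor secretion, 7 fell and none rose after Yap induction. Among all genes tested, 32.0% were called lower and 35.0% higher there (67.0% in all). In the knockout 4 fell and 1, Nqo1, rose, where 17.4% of all genes tested were called lower and 20.6% higher (38.0% in all). Lman1, a cargo receptor for factors V and VIII, averaged 189 ± 19.7 CPM in ApoYap Dox libraries and 639.6 ± 27.1 CPM in ApoYap ctrl libraries (SD, n = 3 and 4), and fell (−1.76 ± 0.11, adjusted p = 9.3e-13). Ggcx, the gamma-glutamyl carboxylase, fell too (−1.85 ± 0.13, adjusted p = 6.4e-12), as did Pcsk6, a proprotein convertase (−2.18 ± 0.18, adjusted p = 1.4e-10).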

How the data were processed

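Sorted mouse hepatocytes of 7 groups (25 libraries) were profiled by 3′ tag RNA sequencing, in which a gene's count does not depend on its length. The authors deposited a table of raw counts per gene, and per the submitters' processing notes the tools included FastQC, cutadapt and STAR 2.6.1d with mm10 (GRCm38). For counting, the tool, annotation and strand setting were not given in the sources used here. Genes were kept by edgeR's filterByExpr (minimum count 10, minimum total 15), libraries were scaled by TMM, and 1 mean per group was fitted over all 25 libraries with edgeR 4.0.16 (R 4.3.3, quasi-likelihood, robust, limma 3.58.1), giving 9 contrasts with Benjamini-Hochberg adjustment over 12970 genes at 0.05. CPM values are TMM-scaled unless called unscaled, and 1 count is 0.0361 to 0.141 CPM. An error after ± is a standard error beside a log2 change and an SD beside a mean. A floor of 3 counts covers counting error only, and 95% intervals cover the error of the fit, which includes the spread between libraries. The procedure was tested on simulated counts. DESeq2 1.42.0, other scalings, filters, sets of groups, a replicate block and each library left out in turn were alternatives. Replicates were distinct (33 pairs, r 0.948 to 0.985, chi-square per degree of freedom at least 7.69). Named in full were the 2 members of smallest p in each role and manipulation, all members called higher, and those whose 2 changes differed; other members and the 3 genes of smallest p in each further pathway list follow. Some genes of these lists are not reported here. Members and lists were chosen with earlier results of these data known. Gene positions are from GENCODE M21 and sequences from RefSeq (GRCm38.p6).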

Additional observations from a re-analysis of the deposited data

Results flagged for a closer look

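In groups of 4, 18 of 147 sets of values examined held a library whose gap to its nearest neighbour exceeded Dixon's critical share of the range at the 95% level, where chance gives about 1 in 20. In ApoYap ctrl, the fourth library was low for C8a (386 CPM, others 552 to 585) and Fgg (2831, others 3598 to 3754), and the third was low for F7 (91.8, others 103 to 105) and F12 (445, others 498 to 503). The second ApoYap ctrl library was high for F11 (31.7 CPM, others 21.3 to 21.7), Pros1 (59.9, others 51.9 to 52.5) and Vtn (2228, others 1839.9 to 1896). In Lats1/2 flox ctrl, the fourth library was high for C8b (1799.6 CPM, others 926 to 979.9) and F12 (467, others 383 to 397), and the first was low for Plg (1584, others 2073 to 2128), Proc (267, others 293 to 297) and Masp2 (98.5, others 103). In BL/6 Dox, the second library was high for F7 (162 CPM, others 109 to 117) and F10 (799.5, others 577 to 605), and the third was low for Hc (401, others 474 to 488). In BL/6 ctrl, the second library was high for C8a (735 CPM, others 605 to 623), C9 (1442, others 1113 to 1145) and Hc (619, others 487 to 503).

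The test of the difference between contrasts was passed by 32 members for Yap induction against doxycycline in BL/6, by 20 for the knockout against AAV-Cre in BL/6, and by 31 for the knockout against Yap induction. Mbl2 was the member called in opposite directions, with a log2 difference of 3.19 between the knockout and Yap induction.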

How the results depend on the processing

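With total counts alone, all genes called higher after Yap induction numbered 8613 (4536 as reported) and lower 1638 (4148), complement members called higher 4 (1) and lower 9 (14), and coagulation members called higher 2 (1); the same member counts came net of doxycycline. In the knockout this scaling gave 5781 genes higher (2668) and 572 lower (2258), with 5 complement (10) and 6 coagulation members lower (15). Net of AAV-Cre it gave 4 complement members higher (1) and 4 lower (9), and 2 coagulation members higher (0) and 5 lower (10). For the knockout less induction it gave 9 complement members higher (14) and 3 lower (1), and between untreated floxed and BL/6 libraries 0 complement members higher (1). Values that turned sign with total counts alone were C2 0.66, C4bp 0.84, C6 0.82, Pros1 0.75 and Fgb 0.032 (induction), Kng1 0.41, Fga 0.0034, Fgg 0.0017 and F13b 0.037 (knockout), and C2 0.82, C9 0.16 and Fgb 0.24 (net of doxycycline).

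Replicate numbers showed no clear pairing of the libraries. Same-numbered deviations correlated at −0.24 to 0.01 in the knockout and 0.05 to 0.17 in the induction. Between untreated floxed and BL/6 libraries they correlated at 0.02 to 0.19. Not every pair passed 0.1 in any comparison, but with so few libraries in a group this check cannot exclude pairing. With the replicate block the knockout had 1579 genes higher and 998 lower, 5 complement members lower, and 1 coagulation member higher and 8 lower. The knockout calls of Cfp and F8 ended with it (adjusted p = 0.0881 and 0.168). The block also gave 1 complement member higher for BL/6 AAV-Cre (0) and 3 coagulation members lower between untreated floxed and BL/6 libraries (0). Fitting only the groups compared gave 1400 genes lower in the knockout, 3 complement members higher and 1 coagulation member lower for BL/6 AAV-Cre (0 and 0), 2 complement members higher net of AAV-Cre (1), and 3 coagulation members lower between untreated floxed and BL/6 libraries (0). DESeq2 called 1 complement member higher for BL/6 AAV-Cre (0), 1 coagulation member higher net of AAV-Cre (0), 2 complement members lower for the knockout less induction (1) and 1 complement member lower between untreated ApoYap and BL/6 libraries (0), as did no filter on low counts.

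Leaving out 1 library at a time gave 1362 to 2364 genes lower in the knockout (1362 without Lats1/2 KO 2), 1 to 2 coagulation members higher there (1 without Lats1/2 KO 2 or Lats1/2 flox ctrl 1), and 0 to 2 higher net of AAV-Cre (2 without BL/6 AAV-Cre 2). It gave 0 to 1 complement members lower between untreated ApoYap and BL/6 libraries (1 without BL/6 ctrl 2) and 0 to 1 higher between untreated floxed and BL/6 libraries. Knockout coagulation members called lower numbered 10 to 15. Without BL/6 Dox 1 and 2 together, 13 complement and 15 coagulation members were lower net of doxycycline. The cause of these changes was not tested. Depth limits Cfd and Cfb most, with 60 counts or fewer in a group.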

Other observations

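Members that lie within 200000 bases of each other on a chromosome did not always move alike. On chromosome 8, F7, F10 and Proz, with 1498 bases between F7 and F10 and 4237 between F10 and Proz, changed by −3.73, −3.06 and −2.11 (log2) after Yap induction and by −1.19, −0.91 and −0.71 in the knockout, in the same order both times. C8a and C8b on chromosome 4, 11130 bases apart, changed by −3.33 and −3.93 after Yap induction and by −1.09 and −1.21 in the knockout. On chromosome 17, C2 and C4b, 118721 bases apart, parted: C4b fell by 2.18 after Yap induction, while C2 was at −0.25 and did not pass the test.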
